A study of Mus musculus with 6 samples.

Results

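RNA bound to Ago2 in mouse myocytes was examined over 9 genes of cell adhesion, Itgb1, Itga5, Itga7, Vcl, Tln1, Tln2, Fn1, Flna and Flnc. They were chosen by name, with earlier results of these data known. Their data are the deposited peaks that overlap at least 1 base of one of their exons. Of the 9 genes, 8 had such a peak in the 5 libraries with narrow peaks, and Fn1 had none. Over all 21951 protein-coding genes annotated, 46.9% had at least 1 peak over an exon in these libraries. The peaks of the 8 genes fell into 60 intervals, out of 36674 intervals that touch exons of protein-coding genes.

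Cells hold on to the extracellular matrix through integrins, receptors made of an alpha and a beta chain. Fibronectin is a ligand outside the cell, talin and vinculin link the integrin tail to actin inside it, and filamins cross-link the actin filaments and also bind integrin tails. In skeletal muscle this chain anchors the contractile apparatus at costameres and at the ends of the fibre. A miRNA such as miR-222 guides Ago2 to an mRNA mainly by pairing of its seed, the bases near its 5′ end.

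The libraries came from primary mouse satellite cells (MSC), the muscle progenitors of the mouse, kept for 30 h in differentiation medium (DM) and called myocytes at that stage. They were transfected with miR-222 duplex (miR-222-IP) or with siGFP duplex as control (control-IP), at 10 nM according to the sample labels, whereas the study's methods give a higher concentration. The cells were lysed 16 h later for immunoprecipitation with an antibody to Ago2. Experiment 1 held control-IP 1, control-IP 2 and miR-222-IP 1, and experiment 2 held control-IP 3, control-IP 4 and miR-222-IP 2, with untransfected cells in neither. The labels do not say whether libraries of an experiment came from separate cultures or animals.

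Each list gave where a peak lay and the −log10 p that macs2 assigned to it, here called the score, and held only scores over 20. The 5 lists with narrow peaks held 10579 to 37762 peaks, the fewest in control-IP 1 and the most in miR-222-IP 2. Overlapping or touching peaks of these 5 libraries were joined into intervals, numbered from the 5′ end of each gene. Where a library had no peak, no score over 20 was listed, which is not the absence of the RNA. The depth of each single library is unknown, and scores rise with depth as well as with enrichment. In control-IP 3 the median peak was 32103 bp wide and the list stopped on chromosome 18, so that its peaks are given apart.

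Markers of muscle cells were found in these lists, and their peaks were not spread evenly. All 15 myocyte markers had an exonic interval, with peaks in 25, 28 and 27 of their 138 intervals in control-IP 1, 2 and 4, in 40 in miR-222-IP 1 and in 138 in miR-222-IP 2. Of 5 myoblast markers, the cell cycle genes Mki67 and Ccnb1 had intervals, 11 and 3, and the progenitor genes Pax7, Pax3 and Myf5 had none. Of 5 leukocyte markers, 4 had intervals, 54 in all, with peaks in 31, 42, 46, 47 and 50 of them in control-IP 1, control-IP 2, miR-222-IP 1, control-IP 4 and miR-222-IP 2. Over all exonic intervals the shares with a peak were 24.0, 46.1, 50.9, 42.9 and 92.3% in the same order. Cd68 and Adgre1, which mark macrophages, had peaks in each of these libraries, and the T-cell marker Cd3e was at 0. Of the other lists, 4 of 9 fibroblast, 2 of 5 endothelial, 2 of 4 Schwann cell and 2 of 5 smooth muscle markers had an interval. In bulk samples fewer cells of a type and less RNA per cell cannot be told apart.

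The sequences that bear on the miR-222 question are those of the miRNA, of its paralogue with the same seed, and of the sites in the adhesion genes that could pair with it. The mature miRNAs are taken from RefSeq on GRCm38, with the seed (bases 2 to 8) in capitals. The sites are read from GRCm38 on the strand of the gene, with 30 bases each and the letters complementary to the seed in capitals. The first site lies under peaks of all 5 libraries, the next at the edge of an interval, and the last under no peak.
miR-222-3p, chrX:19146901-19146923, minus strand: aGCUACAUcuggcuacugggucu
miR-221-3p, chrX:19146307-19146329, minus strand: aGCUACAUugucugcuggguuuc
Itgb1 exon 12, site chr8:128722417-128722423, plus strand: gaggcactgtgaATGTAGCacagatgaagt
Flna 3′ end, site chrX:74223455-74223461, minus strand: gttgtcctgtgaATGTAGCtttcatggaag
Tln1 exon 27, site chr4:43544467-43544473, minus strand: ttgcagctcgggATGTAGCtggtggactaa

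The first question was which of these mRNAs were listed in which library. Peaks were found in 13 of the 60 intervals in control-IP 1, 24 in control-IP 2, 27 in miR-222-IP 1, 25 in control-IP 4 and 59 in miR-222-IP 2. By gene, 3, 5, 6, 5 and 8 of the 9 had an exonic peak in these libraries, in the same order, 33.3, 55.6, 66.7, 55.6 and 88.9% against 21.5, 35.0, 33.3, 30.0 and 44.7% of all protein-coding genes. The intervals with a peak are 21.7, 40.0, 45.0, 41.7 and 98.3% of the intervals, against 24.0, 46.1, 50.9, 42.9 and 92.3% of all exonic intervals. By gene the group was thus above the background in every library, whereas by interval it was a little below it in 4 libraries and above it in miR-222-IP 2. The background by gene takes in all annotated protein-coding genes, and neither exon length nor expression was allowed for. All 5 libraries had a peak in 11 intervals, 18.3% against 18.5% of all exonic intervals. Peaks in miR-222-IP 2 and no other library made up 27 intervals, 45.0% against 31.6%.

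The genes did not share these peaks equally, as the grid of intervals by gene and library shows. Itgb1, Tln1 and Flna were listed in every library, with 13, 21, 22, 21 and 27 of their 28 intervals in control-IP 1, control-IP 2, miR-222-IP 1, control-IP 4 and miR-222-IP 2. Itga7, Vcl, Tln2 and Flnc, which also had 28 intervals, were listed in 0, 1, 4, 3 and 28 of them in the same order. These 2 sets were formed after the calls had been seen, so the contrast between them is a description. Of the 28 intervals of Itga7, Vcl, Tln2 and Flnc, 22 were called in miR-222-IP 2 alone, and none in all 5 libraries. For Itgb1, Tln1 and Flna these numbers were 3 and 11.

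**Figure D1:**
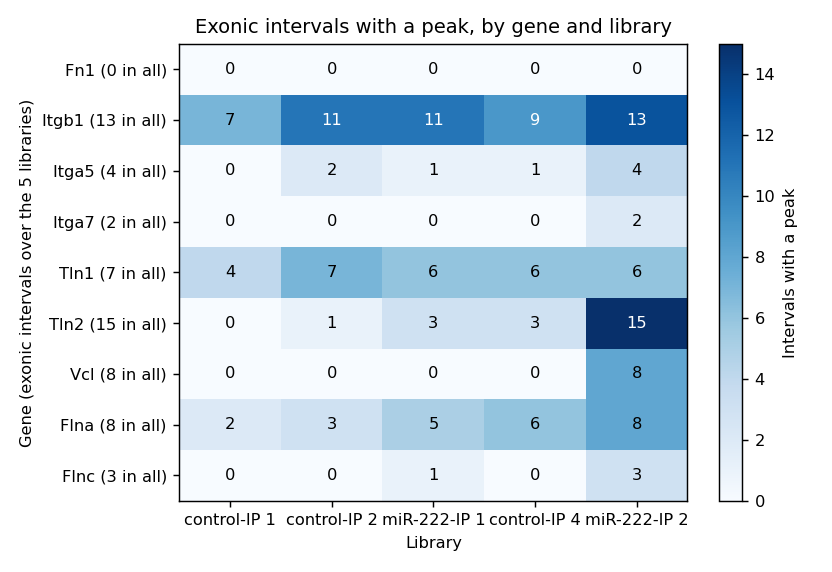
Number of exonic intervals with a peak for each of the 9 genes (rows) and the 5 libraries with narrow peaks (columns), with darker cells for more intervals. Itgb1, Tln1 and Flna have peaks in every column, Vcl and Itga7 only in miR-222-IP 2, and Fn1 in none.

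Tln2, Flnc and Itga7, which have marked roles in muscle, were among the genes listed mainly in miR-222-IP 2, and myocyte markers were also called mostly there. These genes were set apart after the calls had been seen, so the likeness is a description. In miR-222-IP 2 the 138 intervals of the myocyte markers all had a peak, and in the other 4 libraries 25 to 40 had one. The intervals were built from the peaks of all 5 libraries, so one called in miR-222-IP 2 alone counts for it by construction. Of the 28 intervals of Itga7, Vcl, Tln2 and Flnc, 22 were of this kind. The full share in that library is thus partly fixed in advance, for these genes and for the myocyte markers alike. The summed scores of these markers were 1377 in control-IP 1, 1506 in control-IP 2, 2175 in miR-222-IP 1, 1695 in control-IP 4 and 8410 in miR-222-IP 2. Leukocyte marker intervals with a peak numbered 31 to 47 in the other 4 libraries and 50 in miR-222-IP 2. The part of cell makeup or depth in the calls of Itga7, Vcl, Tln2 and Flnc was not tested. When only the 10579 highest peaks of each library were kept, an alternative added after the data had been seen, Vcl and Flnc kept 1 interval each, both in miR-222-IP 2 alone. Tln2 then had 1 interval, in control-IP 4, and Itga7 had none. The myocyte markers then had 57 intervals, of which 17 to 25 had a peak in the other 4 libraries and 49 in miR-222-IP 2. Shares over all exonic intervals at this setting are not given here, so whether these counts are particular to these genes cannot be told.

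**Figure D2:**
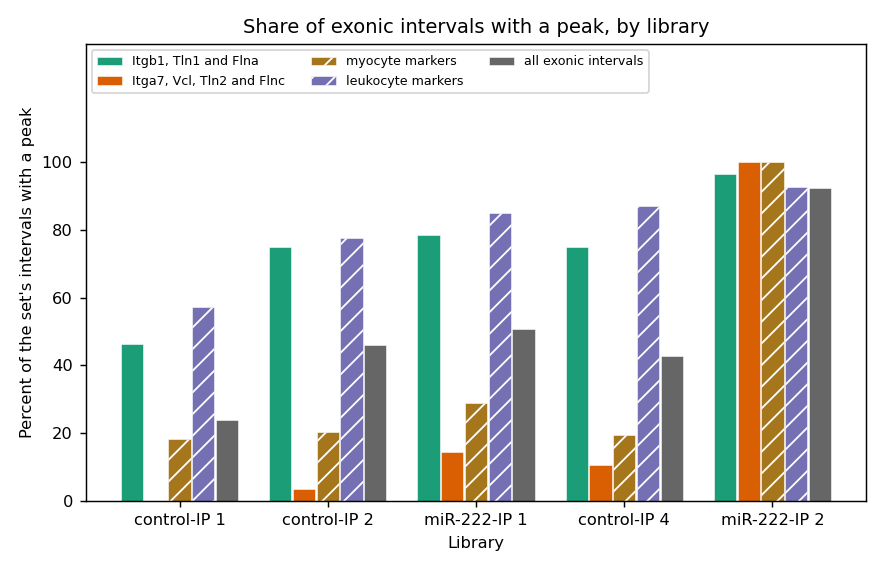
Percent of the exonic intervals of each set that had a peak in each of the 5 libraries, for the adhesion genes in 2 sets, for myocyte and leukocyte markers (hatched) and for all exonic intervals. Itga7, Vcl, Tln2 and Flnc and the myocyte markers have low bars in 4 libraries and 100% in miR-222-IP 2. Intervals called only in miR-222-IP 2 raise its bars by construction. Itgb1, Tln1 and Flna and the leukocyte markers have higher bars in the other 4 libraries. The 16 further integrins, not drawn, had peaks in 32, 45, 53, 53 and 63 of their 68 intervals, in the order of libraries shown. The 2 sets of adhesion genes were formed after the calls had been seen, so their bars are a description and no test.

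The ligand of the group, Fn1 (ENSMUSG00000026193, chr1:71585520-71653200, minus strand, 46 exons), encodes fibronectin. No exon of Fn1 was touched by a peak of the 5 libraries. The only listed enrichment was a peak of control-IP 3 of 95887 bp, chr1:71557236-71653122, with a score of 60.4. That peak also spanned the neighbouring gene Atic, and all 5 intervals that the other libraries had inside it lay on Atic.

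Itgb1 (ENSMUSG00000025809, chr8:128685654-128733200, plus strand, 16 exons) encodes the beta chain that pairs with both alpha chains of this group. It had 13 intervals, with peaks in 7 of them in control-IP 1, 11 in control-IP 2, 11 in miR-222-IP 1, 9 in control-IP 4 and 13 in miR-222-IP 2. Peaks lay over 15 of its 16 exons, leaving out exon 9, which is the highest share among the 9 genes. Its 3.19 intervals per kb of exon compare with 0.25 to 0.98 in the other 7 genes that had any and with a median of 0.58 over all genes with an exonic interval. One interval lay in 5′ UTR only, 11 in coding sequence only and 1 across the stop codon into the 3′ UTR.

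In 4 of the 5 libraries the highest score of the whole group was in the last exon of Itgb1, and in control-IP 2 it was in Tln1 interval 7. Interval 13, chr8:128731940-128733222, covers the end of the coding sequence and the 3′ UTR. Its scores were 126 in control-IP 1, 160 in control-IP 2, 175 in miR-222-IP 1, 177 in control-IP 4 and 171 in miR-222-IP 2. All 5 libraries were thus far above the threshold there, and the 2 miR-222-IPs were within the range of the control-IPs.

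Itga5 and Itga7, the 2 alpha chains of this group, were listed far less often than Itgb1. Among the alpha chains of the further integrins given below, Itga6 had 16 intervals, Itga9 20 and Itgav 13, against 13 in Itgb1. Itga1, Itga2, Itga3, Itga4, Itga8, Itga10 and Itga11 had none. Itga5 (ENSMUSG00000000555, chr15:103344286-103366763, minus strand, 30 exons) encodes the alpha chain of the main fibronectin receptor. It had 4 intervals, with 0, 2, 1, 1 and 4 of them called in control-IP 1, control-IP 2, miR-222-IP 1, control-IP 4 and miR-222-IP 2. The highest was interval 4, chr15:103344385-103345309, at the end of the coding sequence and in the 3′ UTR of exon 30. It had no peak in control-IP 1, and its scores were 74.3 in control-IP 2, 34.2 in miR-222-IP 1, 47.3 in control-IP 4 and 112 in miR-222-IP 2. The miR-222-IP was below the control-IP in experiment 1 and above it in experiment 2.

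Itga7 (ENSMUSG00000025348, chr10:128933818-128958282, plus strand, 25 exons) encodes the alpha chain of the laminin receptor typical of muscle. It had 2 intervals, and both were called in miR-222-IP 2 only. The higher, interval 2 at chr10:128957624-128958310 in the last exon, had a score of 31.2 and also overlapped an exon of Mettl7b. Interval 1 lay over exons 11 and 12, in coding sequence, with a score of 27.0. The lists carry no strand, so the reads of Itga7 and Mettl7b cannot be told apart in interval 2.

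Tln1 (ENSMUSG00000028465, chr4:43531519-43562691, minus strand, 57 exons) encodes the talin found in most tissues, which links the integrin beta tail to actin. It had 7 intervals, of which 4, 7, 6, 6 and 6 were called in control-IP 1, control-IP 2, miR-222-IP 1, control-IP 4 and miR-222-IP 2. Interval 7, chr4:43531520-43532406, over exons 56 and 57 at the stop codon, was the highest. Its scores were 41.5 in control-IP 1, 163 in control-IP 2, 85.5 in miR-222-IP 1, 102 in control-IP 4 and 146 in miR-222-IP 2. The 2 control-IPs of experiment 1 were thus far apart, with miR-222-IP 1 between them. Tln1 interval 3, over exons 18 and 19, was the single interval of the 60 that had no peak in miR-222-IP 2. It had a score of 55.4 in control-IP 2 and no peak elsewhere. Peaks in control-IP 2 alone made up 5.68% of all exonic intervals.

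Tln2 (ENSMUSG00000052698, chr9:67217087-67559703, minus strand, 59 exons) encodes the talin that prevails in striated muscle. It had the most intervals of the group, 15, of which 0, 1, 3, 3 and 15 were called in the same order of libraries. Interval 3, chr9:67302345-67302737, in exon 37, was the highest. It had no peak in control-IP 1, and its scores were 23.9 in control-IP 2, 20.9 in miR-222-IP 1, 33.6 in control-IP 4 and 60.7 in miR-222-IP 2. Both talin genes therefore had intervals, but those of Tln2 carried lower scores, at most 60.7 against 163 in Tln1. Intervals 14 and 15 of Tln2 were the only ones of the group in 3′ UTR alone, in a longer 3′ end than that of the transcript with the longest coding sequence. A further 2 intervals lay in Tln2 introns, both with a peak in control-IP 2 alone and with scores of 45.8 and 21.0.

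Vcl (ENSMUSG00000021823, chr14:20929398-21033676, plus strand, 21 exons) encodes vinculin, which binds talin and actin. All 8 of its intervals were called in miR-222-IP 2 and in no other of the 5 libraries. Their scores were 24.2 to 63.2, the highest in interval 3, chr14:20982464-20982826, in exon 3. Intervals 1 to 5 lay over exons 1 to 5, one exon each, and the others over exons 8, 18 and 21. Interval 8, at the stop codon and in the 3′ UTR, also overlapped an exon of Ap3m1, whose reads cannot be told apart from those of Vcl.

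Flna (ENSMUSG00000031328, chrX:74223461-74249820, minus strand, 47 exons) encodes the filamin found in most cells. It had 8 intervals, of which 2, 3, 5, 6 and 8 were called in control-IP 1, control-IP 2, miR-222-IP 1, control-IP 4 and miR-222-IP 2. The highest score was in interval 8, chrX:74223443-74224037, in the last exon. It had no peak in control-IP 1, and its scores were 90.6 in control-IP 2, 33.3 in miR-222-IP 1, 27.2 in control-IP 4 and 57.5 in miR-222-IP 2. As in Itga5, the miR-222-IP was lower than the control-IP in experiment 1 and higher in experiment 2.

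Flnc (ENSMUSG00000068699, chr6:29433256-29461883, plus strand, 48 exons) encodes the filamin of striated muscle. It had 3 intervals, of which 1 was called in miR-222-IP 1, 3 in miR-222-IP 2 and none in the control-IPs. Interval 1, chr6:29443392-29444448, over exons 10 to 13, had scores of 21.1 in miR-222-IP 1 and 80.8 in miR-222-IP 2. It is one of 4 intervals with a peak in both miR-222-IPs and in no control-IP, 6.67% of the 60 against 6.66% of all exonic intervals. The others were Itgb1 interval 5 and Tln2 intervals 8 and 14. Scores of these 4 in miR-222-IP 1 were 20.4 to 23.3, close to the threshold of 20. How reads that match both filamins or both talins were placed is not given in the sources used here.

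Peaks along the mRNAs lay mostly in coding sequence. Coding sequence is also most of these mRNAs, such as 7941 of 8312 bases in Flna and 3198 of 5267 in Vcl. This was not allowed for in the shares that follow. Of the 60 intervals, 45 lay in coding sequence only (75.0%, against 61.8% of all exonic intervals), and 8 spanned coding sequence and 3′ UTR (13.3% against 18.0%). A further 4 spanned 5′ UTR and coding sequence (6.67% against 6.85%), 1 lay in 5′ UTR only (1.67% against 1.39%) and 2 lay in 3′ UTR only (3.33% against 10.9%). Each of the 8 genes had an interval over its last coding base, whereas 62.8% of 10235 genes with an exonic interval and a coding transcript did. The first coding base was covered in 5 of 8, Itgb1, Vcl, Tln1, Tln2 and Flna, against 25.9%. Among the 5 libraries, the intervals at the last coding base of Itga7, Vcl, Tln2 and Flnc were called in miR-222-IP 2 alone. So were those at the first coding base of Vcl and Tln2. The 8 genes had a median of 7.5 intervals each, against 2 over all genes with an exonic interval, and this was not allowed for.

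On the genome the intervals followed single exons or runs of neighbouring exons. The median interval was 412 bp wide in the group and 372 bp over all exonic intervals. A median of 56.4% of its bases lay in exons of the gene, against 68.0% over all, so that intervals reached into the flanking introns. In the 8 genes, 93 exons lay under an interval and had a median length of 156 bp, and 210 exons did not and had a median of 129 bp. After Itgb1, Flna had 19 of 47 exons under intervals and Tln1 19 of 57. Vcl had 8 of 21, Tln2 14 of 59, Itga5 7 of 30, Flnc 8 of 48 and Itga7 3 of 25. The intervals of Tln1 stood in blocks near the start of the coding sequence, in its second part and at the stop codon, as the plot along the transcripts shows.

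**Figure D3:**
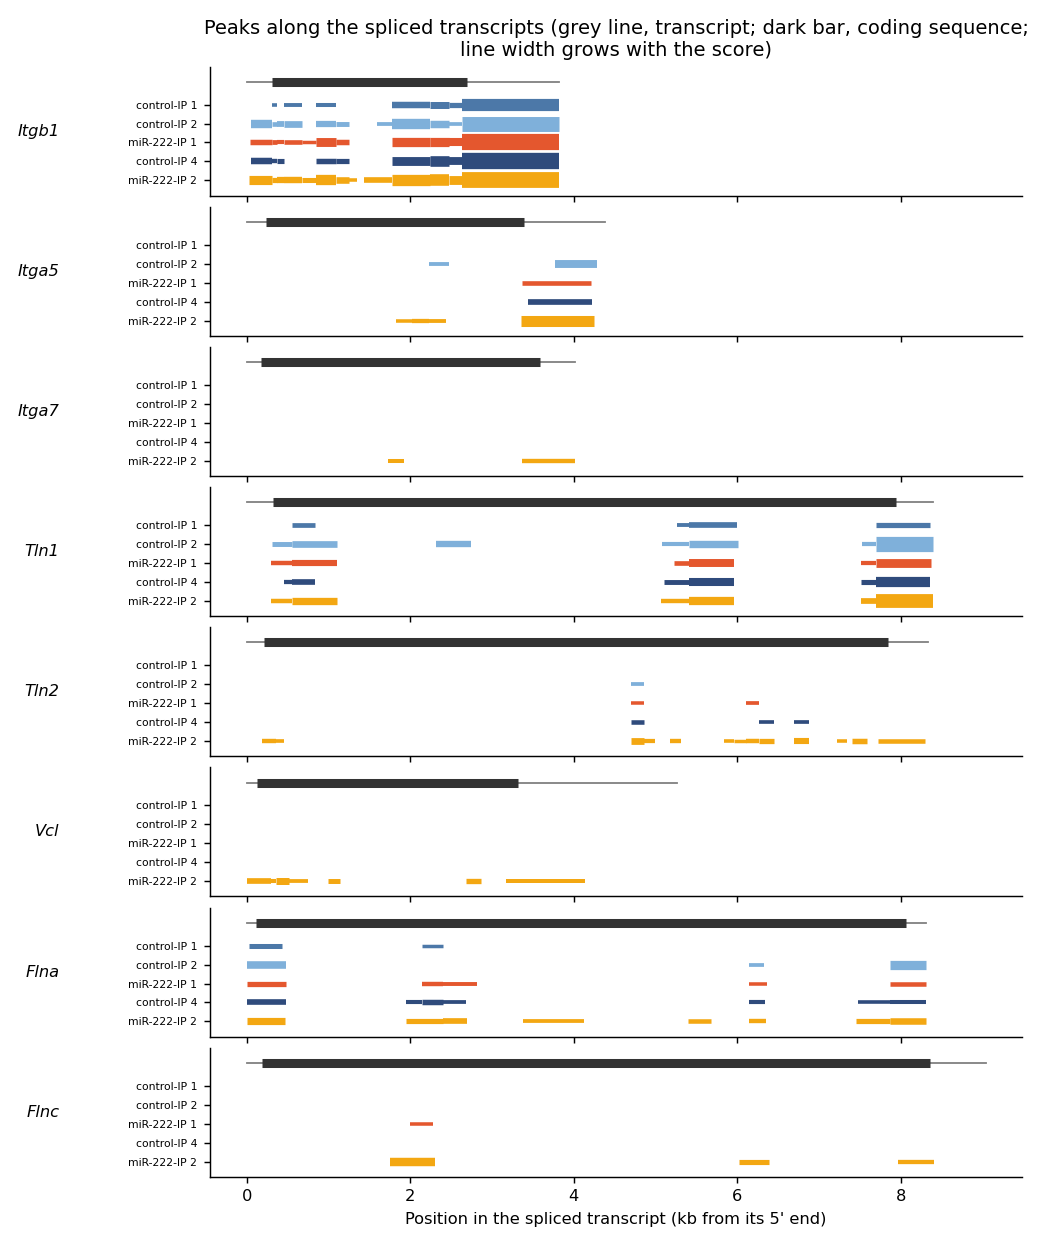
Peaks of the 5 libraries along the spliced transcript with the longest coding sequence of each gene, in kb from its 5′ end, with the coding sequence as a dark bar and wider lines for higher scores. Itgb1 is covered over most of its length and highest at its 3′ end, Tln1 and Flna have blocks shared by the libraries, and Vcl and Itga7 show peaks of miR-222-IP 2 alone. Tln2 intervals 14 and 15 lie beyond the transcript drawn.

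The second question was whether scores in the miR-222-IPs differed from those in the control-IPs of the same experiment. With all 5 libraries it could be asked of the 11 intervals called in each, 6 of Itgb1, 4 of Tln1 and 1 of Flna. Intervals of the same mRNA are not independent. Scores were divided by a factor per library so that the 5 libraries had the same typical score over intervals called in all of them. In experiment 1 the median log2 ratio of miR-222-IP over the mean of the control-IPs was 0.03, with a range from -0.69 to 0.80 and an SD of 0.45 over the 11 intervals. In experiment 2 the median was -0.18, with a range from -0.86 to 0.62 and an SD of 0.39. Over all 6780 exonic intervals called in all 5 libraries the medians were -0.01 and 0.03. Between the 2 control-IPs of experiment 1 the log2 ratio had a median of -0.20 and an SD of 0.69 over the same 11 intervals.

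Most of the 11 intervals were a little lower in miR-222-IP 2 than in control-IP 4. The log2 ratio was above 0 in 1 of 11 intervals in experiment 2, against 51.8% of all, and below 0 in the other 10. In experiment 1 it was above 0 in 6 of 11, against 48.9% of all. It was below 0 in both experiments in 5 of 11, against 26.9% of all, and above 0 in both in 1, against 27.7%. Over the 25 intervals of the group called in both miR-222-IP 2 and control-IP 4, the log2 ratio of experiment 2 was -0.86 to 0.66. Its median there was -0.11, against 0.15 over 15560 such exonic intervals. Experiment 2 has 1 miR-222-IP and 1 control-IP with narrow peaks, so that its differences have no replicate check. Leukocyte markers were also lower in experiment 2, with a median of -0.66 over their 29 intervals called in all 5 libraries, and were lower in experiment 1 as well, with a median of -0.31. Their part in the result was not tested. Without any scaling the medians of the 11 intervals were 0.35 in experiment 1 and 0.42 in experiment 2, and those of all exonic intervals 0.32 and 0.62, so that the direction in either experiment holds only relative to the other intervals.

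**Figure D4:**
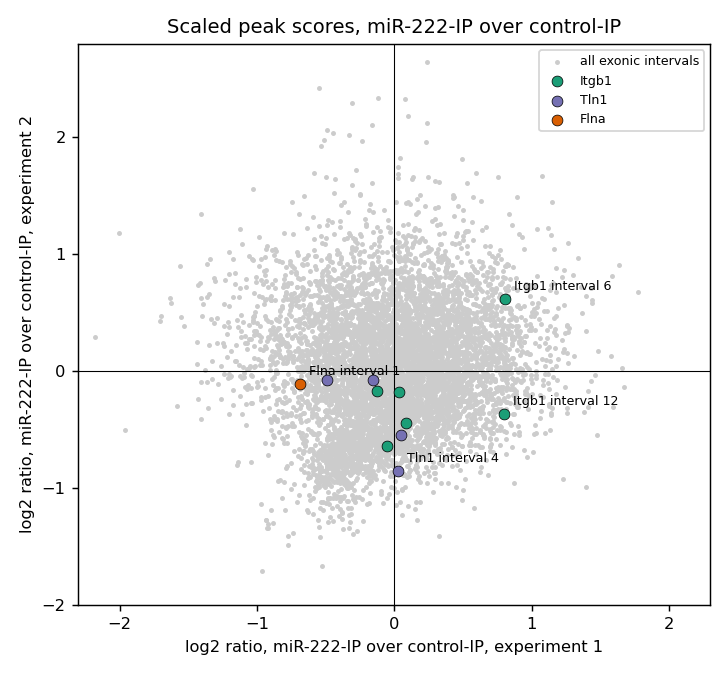
Log2 ratio of scaled scores, miR-222-IP over control-IP, in experiment 1 (horizontal) and experiment 2 (vertical), for the 11 intervals of Itgb1, Tln1 and Flna called in all 5 libraries (large points) and for all 6780 such exonic intervals (grey). Itgb1 interval 6 is the only large point in the upper right, and the other 10 lie below 0 in experiment 2.

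The interval with the highest mean log2 ratio of the group was Itgb1 interval 6, chr8:128713837-128714258, over exon 6. Its scores were 27.0 in control-IP 1, 54.0 in control-IP 2, 86.5 in miR-222-IP 1, 44.8 in control-IP 4 and 103 in miR-222-IP 2. After scaling, both miR-222-IPs, at 81.7 and 69.4, were above the control-IPs, at 38.3, 55.5 and 45.3. The log2 ratios were 0.80 in experiment 1 and 0.62 in experiment 2. It was the 1 interval of 11 in which both miR-222-IPs exceeded every control-IP of their experiment, which 18.2% of all intervals did. The exact permutation test within experiments (two-sided, 6 arrangements) gave p = 0.167, the smallest it can give, so that no interval could reach 0.05. Such p-values measure only the spread between these libraries, which may be technical. The interval holds no 7-mer or 6-mer complementary to the miR-222 seed.

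Two-sided exact permutation p-values for the 11 intervals were 0.167 to 0.833, and the next intervals in order had smaller ratios. Itgb1 interval 12, over exon 15, had a mean log2 ratio of 0.21, from 0.79 in experiment 1 and -0.37 in experiment 2. Its scaled scores were 59.3 in control-IP 1, 23.9 in control-IP 2, 72.2 in miR-222-IP 1, 74.5 in control-IP 4 and 57.7 in miR-222-IP 2. The low value of control-IP 2 thus set the ratio of experiment 1. Itgb1 interval 2, over exon 2, had a mean of -0.07, and its 5 scaled scores lay between 27.8 and 35.4.

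At the other end were Tln1 interval 4, Flna interval 1 and Itgb1 interval 13. Tln1 interval 4, over exons 36 to 38, had scaled scores of 35.6 in control-IP 1, 28.9 in control-IP 2, 32.9 in miR-222-IP 1, 38.1 in control-IP 4 and 21.1 in miR-222-IP 2. Its log2 ratios were 0.03 in experiment 1 and -0.86 in experiment 2. Flna interval 1, over exon 1, had scaled scores of 55.4 in control-IP 1, 72.4 in control-IP 2, 39.6 in miR-222-IP 1, 47.3 in control-IP 4 and 43.9 in miR-222-IP 2. Both miR-222-IPs were below every control-IP of their experiment there, with log2 ratios of -0.69 and -0.11. The same held for Tln1 interval 2, over exons 4 to 7, with -0.16 and -0.08, and such intervals made up 2 of 11, against 17.1% of all. This count rested on single libraries, with 9 of 20 intervals below without control-IP 1 (24.4% of all) and 5 of 12 without control-IP 2 (27.9% of all).

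Itgb1 interval 13, the highest of the group in 4 libraries, had log2 ratios of -0.05 and -0.64. After scaling it stood at 179 in control-IP 1, 165 in control-IP 2, 166 in miR-222-IP 1, 179 in control-IP 4 and 115 in miR-222-IP 2. Only miR-222-IP 2 left the range of the control-IPs. In the same mRNA, interval 6 was thus higher and interval 13 lower in miR-222-IP 2 than in control-IP 4 after scaling.

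**Figure D5:**
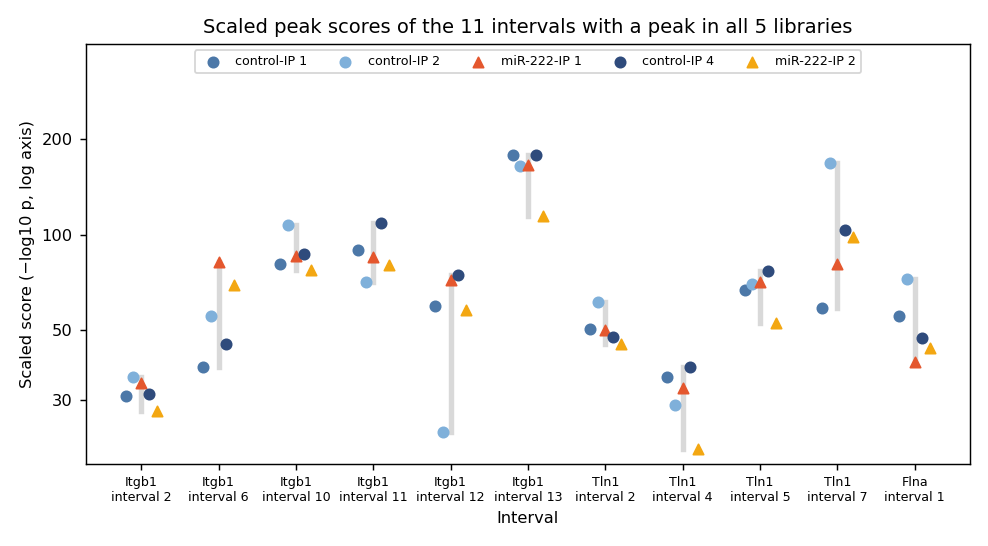
Scaled scores (−log10 p, log axis) of the 11 intervals called in all 5 libraries, with circles for control-IPs, triangles for miR-222-IPs and a grey bar from the lowest to the highest library. In Itgb1 interval 6 both triangles lie above the 3 circles, and in most other intervals miR-222-IP 2 is at or near the lowest point.

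The third question was whether the intervals hold matches to the miR-222 seed. The 7-mer ATGTAGC, complementary to bases 2 to 8, was found on the strand of the gene in 2 of 60 intervals, 3.33% against 2.62% of all exonic intervals. They are the first 2 sites printed above. Counting only 7-mers wholly inside exons left 1 site in the 60 intervals, whereas 2.02% of all exonic intervals held such a site. In Itgb1 interval 10, chr8:128722295-128723132, the site lies in coding sequence, in exon 12, and is followed by A. Peaks of all 5 libraries covered it, with scores of 56.9 in control-IP 1, 104 in control-IP 2, 90.9 in miR-222-IP 1, 86.0 in control-IP 4 and 115 in miR-222-IP 2. The log2 ratios were -0.13 in experiment 1 and -0.17 in experiment 2, both smaller in size than the SD of 0.69 between the control-IPs. Both miR-222-IPs were within or just below the scores of the control-IPs after scaling, at 85.9 and 77.5 against 80.6, 107 and 87.0.

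In Flna interval 8 the 7-mer shares 1 base with the annotated end of the gene and runs past it. Of the 4 libraries with a peak in that interval, control-IP 2 alone had one that reached the site. Along the spliced transcripts with the longest coding sequence, the 9 genes held 2 such 7-mers, the one in Itgb1 and the one in exon 27 of Tln1. No interval covered the Tln1 site. Interval 3, over exons 18 and 19, and interval 4, over exons 36 to 38, were its neighbours. Neither Tln2, Vcl, Itga5, Itga7, Flnc nor Fn1 had the 7-mer in these transcripts.

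For comparison, 7-mers of other miRNAs known from muscle or from many tissues were counted in the same way. That of miR-29 was in 5 of 60 intervals, 8.33% against 5.87% of all, in Itgb1 intervals 10 and 13, Tln2 interval 8, Vcl interval 8 and Itga5 interval 4. Those of miR-1 with miR-206 and of let-7 were in 2 intervals each, 3.33% against 3.53 and 3.73%, both pairs in Itga5 and Flna. That of miR-133 was in none, against 3.19%. A match of 7 bases describes the sequence and does not show pairing.

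Control-IP 3 listed 5 peaks over exons of the group. Its list has none on the chromosomes of Itgb1, Tln1, Tln2, Flna and Flnc, so these genes could not be assessed in it. Itga5 lay under a peak of 94747 bp with a score of 165, Itga7 under one of 47879 bp with a score of 125, and most of Vcl under one of 87874 bp with a score of 61.7. These wide peaks also spanned 2 to 4 other protein-coding genes each. The exception was a peak of 464 bp at exon 1 of Vcl, with a score of 129. It lay over Vcl interval 1, so that this exon was listed in 1 control-IP besides miR-222-IP 2.

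Other genes of adhesion were set beside the 9. Of 16 further integrins, 6 had exonic intervals, 68 in all, of which 32, 45, 53, 53 and 63 were called in control-IP 1, control-IP 2, miR-222-IP 1, control-IP 4 and miR-222-IP 2. Itga9 had 20 of them, Itga6 16 and Itgb5 14. Over all protein-coding genes 46.9% had an exonic interval, and 24.0, 46.1, 50.9, 42.9 and 92.3% of all exonic intervals were called in these libraries. Of the 28 integrin intervals called in all 5 libraries, the log2 ratio was below 0 in both experiments in 15 and above 0 in both in 3. Over all such exonic intervals the shares were 26.9 and 27.7%. Itgam and Itgb2, the chains of an integrin of macrophages and neutrophils looked at after the values had been seen, had 17 and 11 intervals and were called in every library.

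Of 16 other matrix ligands, 6 had intervals, 26 in all, of which 5, 15, 9, 11 and 24 were called in the same order. Nid2, a basement membrane linker, had 17 of them, Lamc1 4 and Lamb2 2, and Lama2, the laminin chain of the muscle basement membrane, had none, like Fn1. Of 36 adaptors of adhesion sites, 33 had intervals, 154 in all, of which 27, 68, 58, 50 and 138 were called. Tns3 had 17, Ldb3 13 and Lpp 11. All 13 intervals of Ldb3, a protein of the Z-disc, were called in miR-222-IP 2 alone, as were all 8 of Vcl. Of the 20 adaptor intervals called in all 5 libraries, 5 were above 0 in both experiments and 7 below, against 27.7 and 26.9% of all. The shares over all genes and intervals given for the integrins hold for these lists too.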

How the data were processed

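RISC-IP RNA of 6 libraries was sequenced by the authors, who mapped reads to the mm10 build, ran macs2 on each library and deposited position and −log10 p of peaks over 20. The macs2 control track and the reads per library are not given in the sources used here. Ratios of −log10 p are no measure of reads, and the intervals carry no counting error.

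The 9 genes and all marker and pathway lists were chosen with earlier results of these data known. Exons and coding parts came from GENCODE M21. A base coding in any transcript counted as coding. Groups and experiments followed the sample labels, with replicates numbered in accession order. The score of a library was its highest peak over an interval, scaled by the median of ratios over intervals called in all 5 libraries. Each miR-222-IP was set against the mean of the control-IPs of its experiment, and the condition was permuted within experiments for single intervals. Percentages for all exonic intervals used 36674 intervals (36672 for 7-mers, on the sequenced chromosomes), each assigned to the protein-coding gene with the most exonic bases. No control-IP was identical to another. The genes named were the 9, the interval with the highest score of each, every interval with the miR-222 7-mer, the 3 highest and 3 lowest mean log2 ratios, the 3 genes of each pathway list with the most intervals, and Lama2, which had none. Python 3.11.15 and numpy 2.4.6 were used, and 9 of 9 checks on simulated data passed.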

Additional observations from a re-analysis of the deposited data

Results flagged for a closer look

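Among the 4 control-IPs, control-IP 3 stood apart in the median width of its peaks (32103 bp), in the median width of its peaks over exons of the adhesion genes (87874 bp) and in its median score (68.6), with a gap to the next library past Dixon's critical value for 4 samples. Chance alone gives such a gap in about 1 of 20 groups. Itgb1 interval 12 moved in opposite directions in the 2 experiments, with a log2 ratio of 0.79 in experiment 1, where miR-222-IP 1 was above both control-IPs, and -0.37 in experiment 2. Tln1 interval 5, over exons 39 to 43, did the same with 0.049 and -0.54. The difference between the experiments was not tested.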

How the results depend on the processing

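The number of intervals rested on the threshold and on miR-222-IP 2. At a threshold of 50 the group kept 20 intervals, 3 of them in all libraries and 6 in miR-222-IP 2 alone. With the 10579 highest peaks of each library it kept 24, of which 8 were in all libraries and 2 in miR-222-IP 2 alone. Shares over all exonic intervals at these 2 settings are not given here, so whether the changes are particular to the group cannot be told. Leaving out 1 library gave 34 to 60 intervals, the 34 without miR-222-IP 2, 11 to 20 called in every remaining library, the 20 without control-IP 1, and 27 to 31 in miR-222-IP 2 alone. The share in coding sequence only was 74.6 to 76.5% in these runs.

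The counts of intervals beyond all control-IPs depended on scaling: without scaling they were 5 above and 0 below, against 49.7 and 2.65% of all intervals, and scaled to the sum of scores 0 above and 3 below, against 1.99 and 34.9%. Leaving out control-IP 1 or control-IP 2 gave 9 below of 20 without control-IP 1 and 5 below of 12 without control-IP 2 (24.4 and 27.9% of all), each with 1 above. Median log2 ratios were -0.23 to 0.044 in experiment 1 and -0.31 to -0.19 in experiment 2 when 1 library was left out. The medians were 0.35 and 0.42 in experiments 1 and 2 without scaling and -0.21 and -0.80 scaled to the sum of scores, where those of all exonic intervals were 0.32 and 0.62, and -0.22 and -0.60. With the lowest listed score in place of missing peaks, the median over the 60 intervals was -0.37 in experiment 1 and -0.08 in experiment 2. The 27 intervals called in miR-222-IP 2 alone then had filled scores in every library of experiment 1. Their ratio there is set by the scaling factors of the libraries, so the value of -0.37 says nothing about these genes. Without the pairing by experiment, that is with no replicate block, the median over the 11 intervals was -0.17, against 0.00 over all. The 6-mer that pairs with miR-222 bases 2 to 7 was in 9 intervals and the 7-mer followed by A in 1, with no share over all intervals given for either. Leaving out 1 library left 1 or 2 intervals with the 7-mer, 1 without control-IP 2.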
